A study of Mus musculus with 4 samples.

Results

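This account covers the accessible chromatin around Pitx1 and Isl1, 2 transcription factor genes known for hindlimb identity and hindlimb initiation, in cells of embryonic mouse limbs. The members are the ATAC-seq regions that overlap either of 2 intervals on chromosome 13 of mm10. One is the fixed interval chr13:55600000-56350000 (750 kb), which holds Pitx1 and the landscape upstream of it, and the other is chr13:116059688-116559688, which reaches 250 kb to either side of the Isl1 start site. The rule used position only. It gave 162 regions of 136769 in all, which were 126 of 99356 in the E10.5 list and 36 of 37413 in the E11.5 list. A region is 1 peak as the authors deposited it.

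ATAC-seq uses the Tn5 transposase to place sequencing adaptors where DNA is accessible. The groups are E10.5 and E11.5 (embryonic days), with 2 samples each, taken from the sample titles, while the treatment protocol gives the earlier stage as E10. Every sample is wild type and mixes forelimb with hindlimb cells, which were dissociated with trypsin and fixed before Tn5 was added, so an accessible site used in hindlimb cells alone is read here against all limb cells, and fewer such cells cannot be told apart from less access per cell. Each stage has 1 peak list made from both of its samples. No spread between samples and no test between stages could therefore be had. Sequencing depth is unknown, and what follows describes these lists.

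Pitx1 encodes a paired-type homeodomain factor that is made in the hindlimb bud and not in the forelimb bud, where it promotes hindlimb form and the expression of Tbx4. Its enhancers lie scattered over the long interval upstream of the gene, among and beyond genes such as Macroh2a1 and Neurog1, and some of them, such as the one known as Pen, are active in both pairs of limbs. Isl1 encodes a LIM-homeodomain factor that acts in the posterior flank before and as the hindlimb buds out, upstream of Fgf10 and Hand2. It is also a regulator in motor neurons, sensory neurons and heart progenitors. Positions of known enhancers were not used here, and no region below is assigned to one.

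Promoter sequence is given for a gene of each interval whose promoter had a region in both lists. The sequence under the other shared regions was not examined, so these stretches do not stand for them. RefSeq sequence (GRCm38.p6, the mm10 build) was used for Isl1 and for Neurog1, a proneural factor gene inside the Pitx1 interval, and each stretch below is the 250 bases before the start site on the minus strand, 5′ to 3′. Capitals mark TAATCC (the letters Pitx factors bind), TAATTA (a homeodomain core) and CCAAT, on either strand.
Isl1, chr13:116309689-116309938: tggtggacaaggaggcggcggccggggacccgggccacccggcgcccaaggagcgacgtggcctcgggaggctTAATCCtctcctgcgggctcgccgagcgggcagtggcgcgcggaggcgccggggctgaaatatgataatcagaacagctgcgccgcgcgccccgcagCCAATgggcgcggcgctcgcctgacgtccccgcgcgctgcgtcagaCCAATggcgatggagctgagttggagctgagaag
Neurog1, chr13:56252181-56252430: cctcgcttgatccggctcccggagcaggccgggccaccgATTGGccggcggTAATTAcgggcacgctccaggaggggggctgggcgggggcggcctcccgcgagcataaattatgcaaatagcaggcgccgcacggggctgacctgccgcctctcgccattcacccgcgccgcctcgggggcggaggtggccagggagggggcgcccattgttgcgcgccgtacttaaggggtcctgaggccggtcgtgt

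All 250 bases of each stretch lay inside a region of both lists. Both are rich in G and C, at 71.2% each, against a median of 52.4% over the 32851 promoters of the same length in that table. The Isl1 stretch holds 33 CpG pairs and that of Neurog1 holds 29, against a median of 6. TAATCC occurs 1 time before Isl1, from 177 to 172 bases before the start site, and in 6.25% of all promoters. CCAAT occurs 2 times before Isl1, from 80 to 76 and from 34 to 30 bases before the start, and 1 time before Neurog1, and 33.8% of promoters hold it. TAATTA is found before Neurog1 and in 4.84% of promoters. Of the other letters searched, GGGCGG (the GC box, 32.7% of promoters) occurs 3 times before Neurog1 and not before Isl1. TATAAA (12.4%) is in neither stretch, and CANNTG (the E-box, 66.2%) occurs 1 time before Isl1. These matches describe the sequence and do not show binding. Pitx1 was not in the sequence table used.

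The Pitx1 interval was densely accessible at E10.5, and few of its regions had a counterpart at E11.5. It held 105 E10.5 regions and 21 E11.5 regions, which is 14.0 and 2.8 per 100 kb. They covered 124 kb at E10.5 and 15.1 kb at E11.5. A counterpart, meaning an E11.5 region that shares 1 bp or more, was found for 19 of the E10.5 regions. That is 18.1% (95% Wilson interval 11.9 to 26.5%, counting error only), against 32.3% of E10.5 regions across the genome. Each of the 21 regions at E11.5 had an E10.5 counterpart, where 91.8% do across the genome, so the interval held no region in the E11.5 list only.

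Across the interval the E10.5 signal value, the authors' own value for a peak, which grows with its width, ran from 202 to 13033 with a median of 1815. The 19 shared E10.5 regions had a median of 5393 and none was below 2040. The 86 regions without E11.5 overlap had a median of 1056 and reached 7629, and that highest value belongs to the Pitx1 promoter.

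The Pitx1 gene itself (chr13:55825044-55836190, minus strand) was accessible over most of its length at E10.5. From the end of Catsper3, its downstream neighbour, to 2 kb upstream of the Pitx1 start site, 6 E10.5 regions had their summit, and 84.6% of these 14.1 kb lay in a region. The promoter region spanned the start site at chr13:55835399-55837978, from 791 bp inside the gene to 1788 bp upstream, with its summit 1367 bp upstream. Its signal of 7629 was rank 4128 of 99356, in the top 4.15% of the list, and its −log10 p was 8.16. Within the gene, a region at chr13:55829947-55834380 had a signal of 11967 (rank 1062). At the 3′ end, a region at chr13:55822506-55825782, which reached from inside Catsper3 into Pitx1, had 8956 (rank 2673).

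At E11.5 the start site of Pitx1 lay in a stretch of 91.5 kb with no region (chr13:55832128-55923605), and 12 E10.5 regions fell wholly inside that stretch, which was measured after its regions had been seen. Stretches longer than this made up 18.5% of the 37392 between neighbouring E11.5 regions, whose median was 24.7 kb, so its length alone is not rare in that list. The nearest E11.5 region ended 4.06 kb inside the gene. It lay at chr13:55830764-55832127, within the strong E10.5 region of the gene body, with a signal of 912, rank 16583 of 37413. At the 3′ end a region of 223 in signal lay at chr13:55824273-55824691, rank 35370. Pitx1 thus had 2 E11.5 regions in or beside the gene and none within 1 kb of the start site used. That start site is the outer end of the gene, and any alternative start site inside the gene was not considered.

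A promoter region of this signal rarely lacked an E11.5 counterpart. Of 14010 E10.5 promoter regions, those within 1 kb of the start site of a protein-coding gene, 86.0% overlapped an E11.5 region. Among the 2649 with at least the signal of the Pitx1 region, 3 did not, which is 0.113%. Pitx1 was the lowest of them by signal, because the cut was its own value. The other 2, named after their values were seen, were at Sema3b on chromosome 9 (signal 9494) and A530016L24Rik on chromosome 12 (8390). Just below the cut, the promoter region of Hoxc9 (7520) also lacked a counterpart. Signal grows with width, and the Pitx1 region was 2580 bp wide.

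Upstream of Pitx1, between 2 kb from its start site and the end of Macroh2a1, lay 35 E10.5 regions in 235 kb with no protein-coding gene. Only 2 of the 35 overlapped an E11.5 region. The stronger of these was at chr13:55962135-55963928, 127 kb upstream, with an E10.5 signal of 8757 (rank 2858), and 2 E11.5 regions lay within it, at chr13:55962185-55962601 (signal 460) and chr13:55963081-55963570 (748). The other was at chr13:55923174-55924461, 87.5 kb upstream (3067), with an E11.5 region of 187 bp at chr13:55923606-55923792 (340). The share of 5.71% is the smallest of the segments when all regions are counted, but all 35 regions here are distal, over 1 kb from a protein-coding start site. By distal regions alone it is not the smallest, since 0 of 16 were shared between the start of the interval and the end of Catsper3. Across the genome 23.5% of distal E10.5 regions were shared. The strongest of the 35 regions without overlap lay 230 kb upstream, at chr13:56065361-56066715 (4926), just short of the 3′ end of Macroh2a1.

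Macroh2a1 encodes a variant histone of the macroH2A type, and its gene and promoter held 11 E10.5 regions, of which 2 were shared. One is its promoter. The other lay in the gene at chr13:56111508-56114297, 277 kb from the Pitx1 start site, with an E10.5 signal of 8780, and its E11.5 counterpart at chr13:56112612-56112861 had 342. A region at its 3′ end, chr13:56073789-56077670, had 4549 and no counterpart.

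Between Macroh2a1 and Neurog1 the interval held 17 E10.5 regions, 4 of them shared, among them the strongest E10.5 region of all 105. That region lay between genes at chr13:56158888-56161167, 324 kb upstream of Pitx1, with a signal of 13033 (rank 759 of 99356, top 0.764%). Its counterpart at chr13:56159188-56160554 had 2387 and was the second strongest E11.5 region of the interval, at rank 8937 of 37413. The next shared region, 332 kb upstream in the long noncoding RNA gene Gm31657, was at chr13:56167265-56169204 (6991) and at chr13:56167917-56168799 (604). Further out, 361 kb upstream, a region at chr13:56196737-56198149 (4261) held an E11.5 region of 294 bp at chr13:56197532-56197825 (541). The fourth lay 385 kb upstream at chr13:56221028-56223110 (5322) and chr13:56221081-56221879 (781). Not all strong regions here were shared: the one at chr13:56163415-56165790, 328 kb upstream, had 5239 and no E11.5 overlap. From Neurog1 to the end of the interval 3 of 14 E10.5 regions were shared, and 1 of these was distal. It lay inside Cxcl14 at chr13:56288039-56290382 (7967), with an E11.5 region at chr13:56289282-56289642 (309).

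The other promoters of the interval were mostly found in both lists. Of 12 protein-coding genes, 10 had an E10.5 promoter region and 9 an E11.5 one. Across the genome 66.2% of 21532 protein-coding genes had one at E10.5 and 59.9% at E11.5. Catsper3, a sperm ion channel gene, and Tifab had none in either list. Of the 10 E10.5 promoter regions, 9 were shared, and the exception was Pitx1.

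Among genes of general cell function, Ddx46, an RNA helicase used in splicing, had signals of 2576 at E10.5 and 1365 at E11.5. B4galt7, a glycosyltransferase that starts glycosaminoglycan chains, had 3154 and 830. For Macroh2a1 the values were 4693 and 1700. Caml, which helps insert membrane proteins, had 5393 and 2056, and B230219D22Rik had 4802 and 2499, the highest E11.5 value of the interval. Txndc15 had 3369 and 1144, and Pcbd2, which recycles a pterin cofactor, had 5928 at E10.5 and 2 E11.5 regions of 1312 and 433. Each of these promoters had less E10.5 signal than Pitx1, and each had an E11.5 region. The 2 promoters on the far side had low E11.5 values. Neurog1 had 2040 and 297, and Cxcl14, a chemokine gene, had 5995 and 455.

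Distal regions, meaning those over 1 kb from a protein-coding start site, were mostly in the E10.5 list alone. Among those whose summit lay between the start of the interval and the end of Catsper3, none of 16 was shared, although 6 of 6 promoter regions there were. The strongest of these distal regions was in Pcbd2 at chr13:55756452-55757993, with a signal of 4432. Over the whole interval 10 of 95 distal E10.5 regions were shared, with an interval of 5.82 to 18.3%, against 23.5% of distal regions across the genome.

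**Figure D1:**
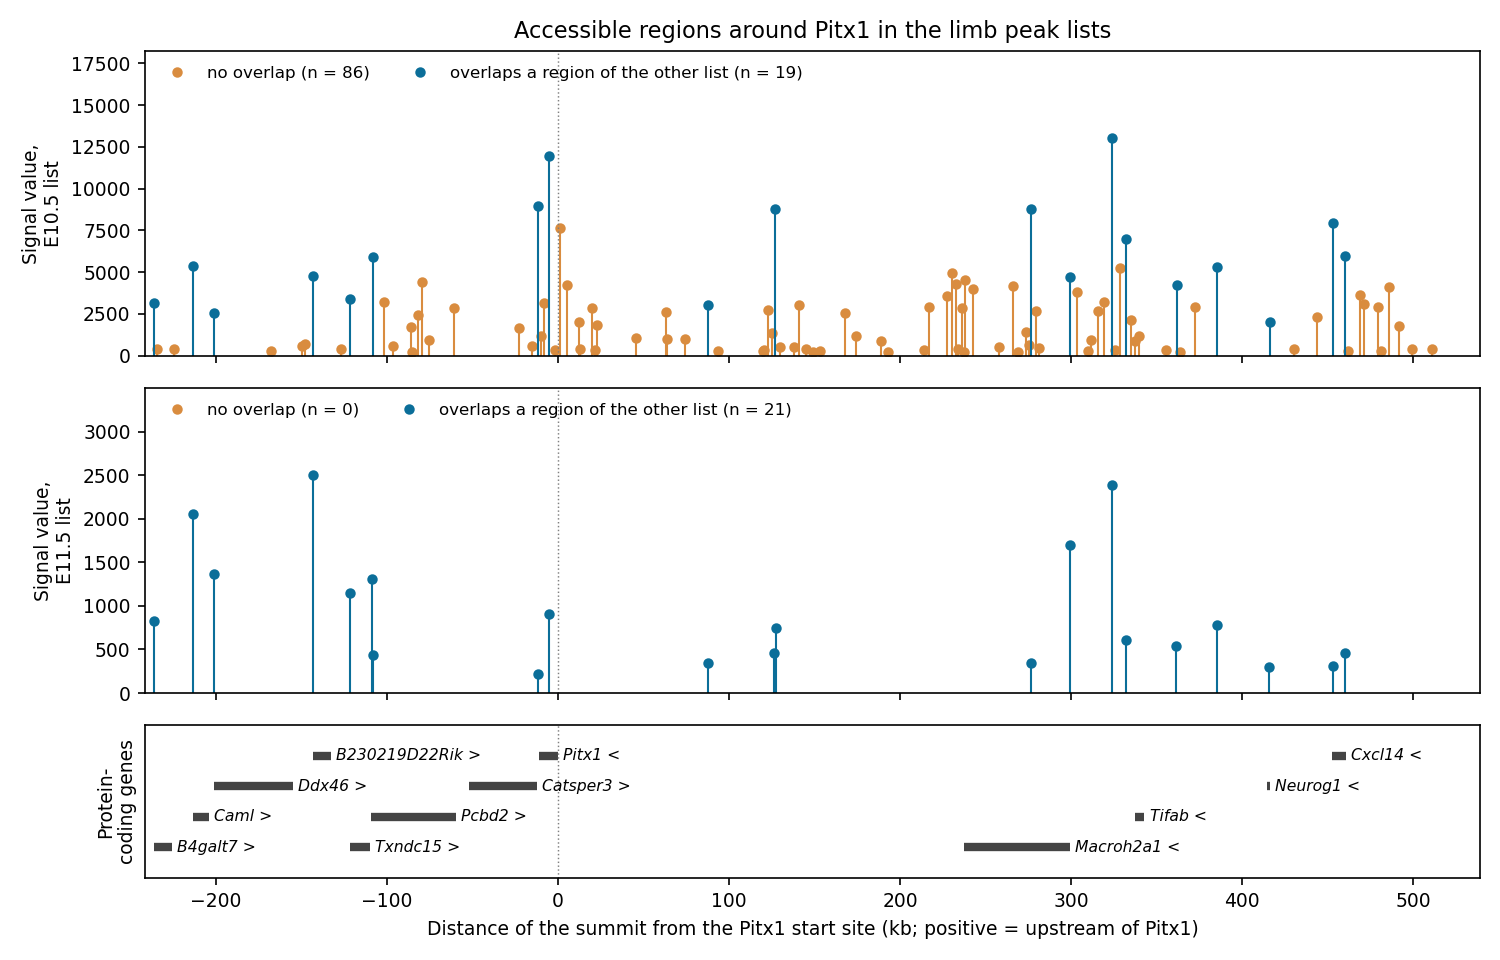
Signal value of each region (y axes, arbitrary units, 1 scale per list) against the distance of its summit from the Pitx1 start site in kb, with E10.5 above, E11.5 in the middle and protein-coding genes below (> plus strand, < minus strand). Of 105 E10.5 regions 19 overlap an E11.5 region, and the promoter region beside the dotted start site line, with a signal of 7629, does not.

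The Isl1 interval held fewer E10.5 regions per 100 kb than that of Pitx1, and a larger share of them had an E11.5 counterpart. There were 21 regions in the earlier list and 15 in the later, 4.2 and 3.0 per 100 kb, and Isl1 is the only protein-coding gene there. Counterparts were found for 14 of the 21, which is 66.7% (45.4 to 82.8%), against 32.3% across the genome. All 15 of the later list had one, against 91.8%, so this second count is near the ordinary value. The E10.5 regions covered 14.8 kb and the E11.5 regions 9.71 kb. E10.5 signal ran from 257 to 5286 with a median of 1068, lower than the median around Pitx1. The regions were also narrower, with a median of 699 bp against 1075 bp, and their median signal per bp was 1.996 against 1.683 around Pitx1. At E11.5 the highest signal was 3912, against 2499 around Pitx1.

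The Isl1 promoter (gene at chr13:116298270-116309688, minus strand) had 1 region in each list with nearly the same borders. At E10.5 it lay at chr13:116309011-116310854 with a signal of 5286, rank 8850 of 99356, and at E11.5 at chr13:116308984-116310847 with 3912, rank 4777 of 37413. It was the strongest region of the interval in both lists, and its summits were 73 and 62 bp upstream of the start site. The second E10.5 region was in the gene, at chr13:116304749-116305744 (2243), and its counterpart at chr13:116304742-116305514 had 681. The promoter was therefore matched at its full width, while the region in the gene was narrower at E11.5.

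Close to the gene, 3 more E10.5 regions were shared. One lay 4.19 kb upstream of the start site, with its E11.5 counterpart at chr13:116313659-116314680 (595). Past the 3′ end, chr13:116296979-116297878 (1830) held 2 E11.5 regions, at chr13:116297120-116297305 (215) and chr13:116297447-116297842 (497), and beside it chr13:116293657-116294506 had 1099 at E11.5.

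Farther past the 3′ end the shared regions formed a group from 93.5 to 166 kb from the start site. The strongest at E10.5 was chr13:116201179-116201945 (2168), and its counterpart chr13:116201007-116201934 had 1437. The next, chr13:116215868-116216677, had 2057, while its counterpart chr13:116216064-116216496 had 297, and the region beside it had 305 at chr13:116214490-116214919. The farthest was at chr13:116142855-116143311 at E11.5 (549). Of the 8 E10.5 regions on this side 7 were shared.

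On the upstream side 5 of 9 E10.5 regions were shared. The farthest and strongest of them, 205 kb upstream, was at chr13:116514467-116515486 (2035) and chr13:116514469-116515344 (946). Nearer in, the E11.5 regions were at chr13:116443156-116443839 (772), chr13:116476903-116477080 (358) and chr13:116495552-116495997 (751). The E10.5 regions without overlap in the interval were weak, at 1068 or below. The strongest of these 7 lay 199 and 46.8 kb upstream, at chr13:116508006-116508704 (1068) and chr13:116356273-116356630 (886), followed by chr13:116303944-116304591 in the gene (814), chr13:116475902-116476593 (550) and chr13:116135574-116135780 (336).

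One shared Isl1 region stood apart in shape. It had the same borders in both lists, chr13:116192852-116193034, a width of 183 bp, with a signal of 1059 in the first and 1567 in the second. Per bp this is 5.78 and 8.57, ranks 373 and 57 in the lists, which is the top 0.375% and 0.152%.

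**Figure D2:**
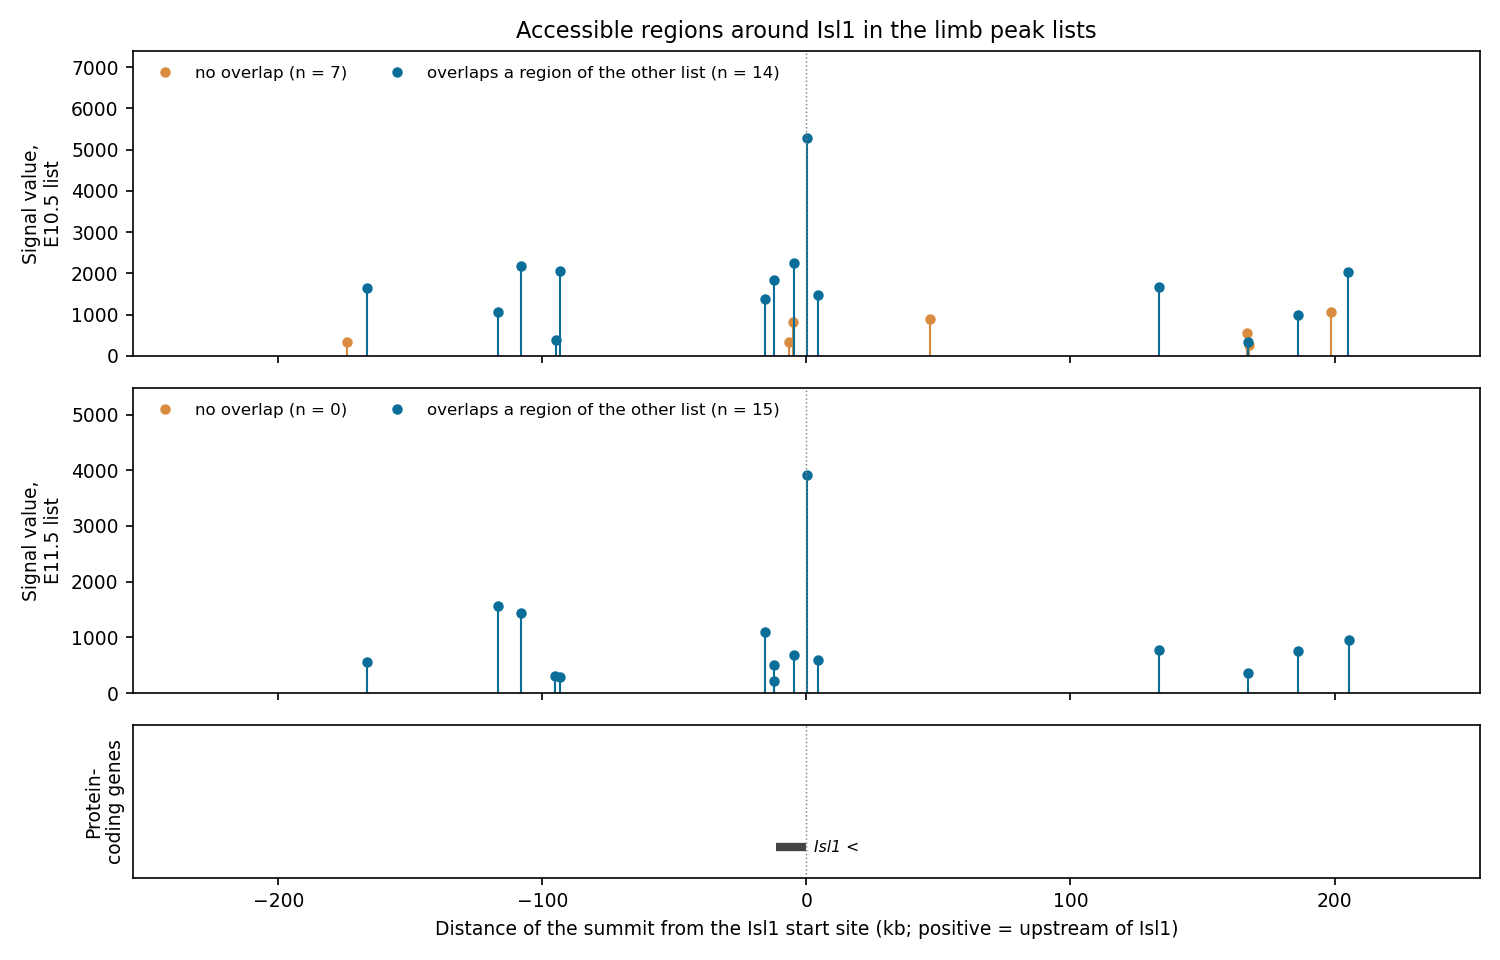
Signal value of each region (y axes, arbitrary units, 1 scale per list) against the distance of its summit from the Isl1 start site in kb, drawn as for Pitx1. The promoter region is the highest in both lists, at 5286 and 3912, and 14 of 21 E10.5 regions overlap an E11.5 region.

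Paired regions were mostly narrower at E11.5, as they were in 88.3% of 34604 pairs across the genome. Around Pitx1 the 19 shared E10.5 regions had a median width of 1793 bp and the 21 E11.5 regions overlapping them 671 bp, and 20 of the 21 pairs had the E11.5 region wholly inside the E10.5 one and narrower. Around Isl1 the medians were 770.5 and 457 bp, and 10 of 15 E11.5 regions lay wholly inside and 10 were narrower. Summits lay within 100 bp of each other in 17 of 21 pairs at Pitx1 and in 13 of 15 at Isl1. In 21 and 13 pairs the E11.5 signal was the smaller, as it was in 92.1% of those pairs. Signal values of the lists are not on a stated common scale, so this is no measure of change.

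Weak regions are shared less often throughout these data, so the loci were read within 3 bands of E10.5 signal, parted at the percentiles 70 and 90 of that list, using distal regions only. In the highest band (signal of at least 4924), 8 of the 10 Pitx1 regions were shared (80.0%, 49.0 to 94.3%), against 92.1% across the genome. In the middle band (from 1734), 2 of 34 were shared (5.88%, 1.63 to 19.1%), against 57.9%. In the lowest band 0 of 51 were, which allows a share of up to 5.88% by a limit of 3 counts, against 11.8%. For Isl1 there was no distal region in the highest band. Its share was 5 of 5 in the middle band (lower bound 56.6%) and 8 of 15 in the lowest (53.3%, 30.1 to 75.2%). The Pitx1 regions thus lay below the genome in each band and those of Isl1 above it in both bands they occupy. The Pitx1 interval in the highest band and the Isl1 interval in the middle band include the share across the genome. Neighbouring regions of one interval are not independent, and the intervals cover counting error only.

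**Figure D3:**
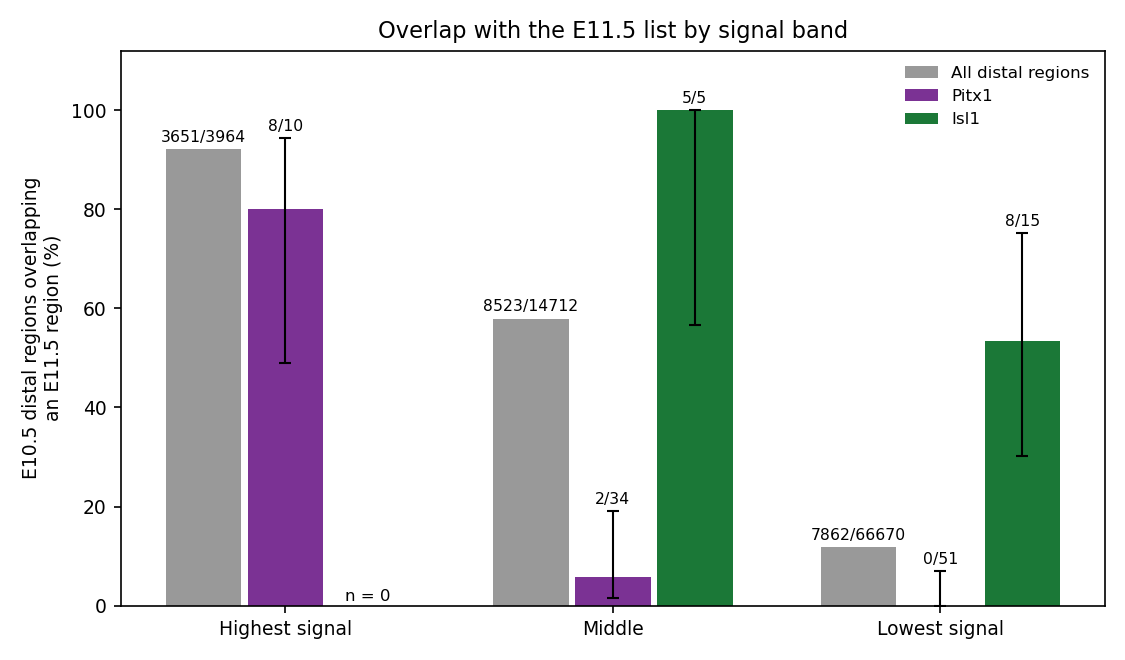
Percentage of distal E10.5 regions that overlap an E11.5 region (y axis), in 3 bands of E10.5 signal, for all distal regions and for the Pitx1 and Isl1 intervals, with counts above the bars and 95% Wilson intervals for the 2 loci. In the middle band 2 of 34 Pitx1 regions and 5 of 5 Isl1 regions are shared, against 57.9% of all.

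The E10.5 list is longer than the E11.5 list, and the contrast between the loci in the E10.5 share was also seen with lists of equal length. With the E10.5 list reduced to its 37413 regions of highest signal, 19 of 58 Pitx1 regions were shared (32.8%, 22.1 to 45.6%) and 10 of 10 Isl1 regions (lower bound 72.2%), against 68.9% of all. The E11.5 share did not show this contrast. In the same setting 21 of 21 E11.5 regions had a counterpart at Pitx1 and 11 of 15 at Isl1, against 75.3% of all. With only regions of −log10 p of at least 5 in both lists, 10 of 63 were shared at Pitx1 and 8 of 14 at Isl1, against 32.4% of all.

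Counted within 250 kb of the start site, Pitx1 had 66 E10.5 regions, more than 96.2% of 21532 protein-coding genes (median 26), and 13 E11.5 regions, more than 56.9% (median 11). Isl1 had 21 and 15, more than 38.7% and 65.3% of genes. Of the 66 Pitx1 regions 11 were shared, 16.7%. Among the genes with at least 10 E10.5 regions the median share was 40.0%, and 4.64% of them had a lower share than Pitx1. The Isl1 share, 66.7%, was above that of 92.0% of these genes.

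Tbx4 and Tbx5, the T-box genes of hindlimb and forelimb, also had many E10.5 regions and few counterparts. Tbx4 had 75 E10.5 and 18 E11.5 regions and a share of 17.3% (10.4 to 27.4%), and its interval of uncertainty overlaps that of Pitx1. Tbx5 had 70 and 3, and a share of 4.29% (1.47 to 11.9%). The single shared promoter region in its window is that of Tbx3, whose start site lies nearby. Isl2, the closest relative of Isl1, had 27 and 8, with 29.6% shared. En1, the gene the study is about, had 37 and 11, with 29.7%.

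**Figure D4:**
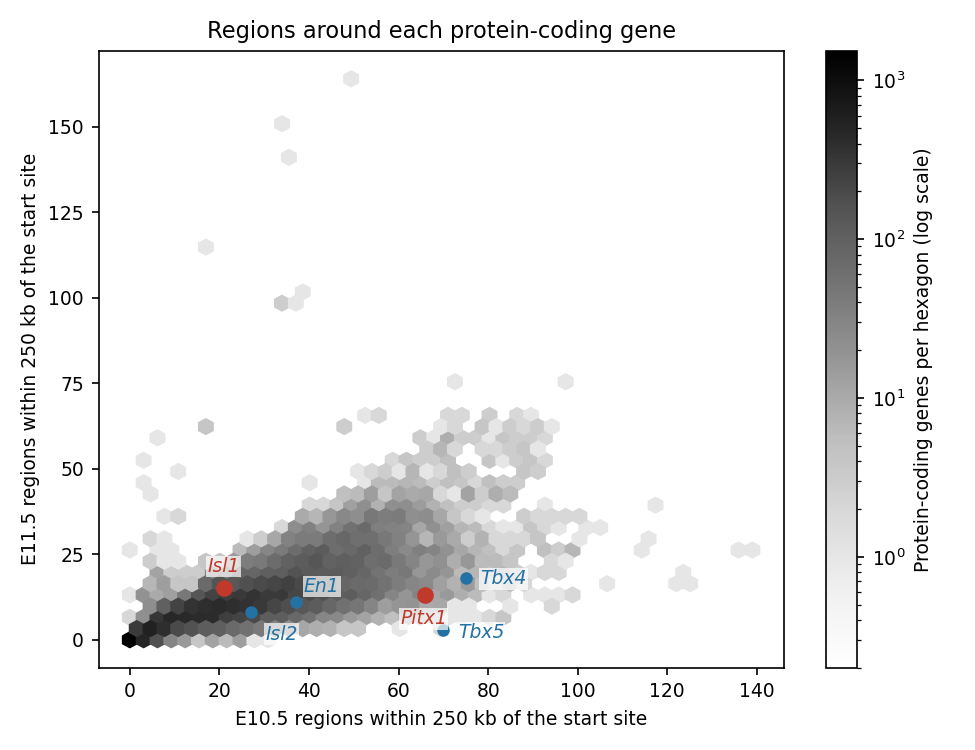
Number of E11.5 regions (y axis) against E10.5 regions (x axis) within 250 kb of the start site of each protein-coding gene, as grey hexagons shaded by the number of genes on a log scale, with Pitx1 and Isl1 in red and 4 comparison genes in blue. Pitx1, at 66 and 13, and Tbx5, at 70 and 3, lie to the right of most genes, with Tbx5 also low on the y axis, and Isl1 is at 21 and 15.

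The genes most like each of the pair were sought by 4 values over the 2 lists, namely summed promoter signal and number of regions within 250 kb at each stage, as a distance on the log2(1 + value) scale. Nearest to Pitx1 were Lgals3bp (distance 0.26), Trp73 (0.34) and Iqcd (0.38), each with a promoter signal at E10.5 of at least 7062 and no E11.5 region within 1 kb of the start site. The promoter region of Lgals3bp met no E11.5 region at all, while Trp73 and Iqcd had 1 E10.5 promoter region each that met one farther out. Nearest to Isl1 were Morn2 (0.12), Rack1 (0.13) and Lrrc8b (0.14), with 20 or 21 E10.5 and 14 or 15 E11.5 regions. The promoter signals and region numbers given for these genes are the values that chose them, so their likeness follows from the choice. The measure uses a few values only and says nothing of shared function.

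Promoters of genes that act with Pitx1 and Isl1 in the hindlimb were read next. Of 10 listed genes of hindlimb and limb initiation, every one had a region at its promoter in the E10.5 list and 7 also in the E11.5 list, where 66.2% and 59.9% of genes do. The E11.5 count is near the share over all genes. Fgf10, the mesenchymal growth factor that starts limb outgrowth, had summed promoter signals of 10791 and 8720. Hand2, a bHLH factor of the posterior bud, had 10154 and 4959. Tbx4, a target of Pitx1, had 5248 and 745, and Hoxc10, a hindlimb Hox gene, had 8896 and 1362. Tbx4 and Hoxc10, unlike Pitx1, thus had a promoter region at E11.5. Irx5 had 13456 and 6297 and Irx3 had 9732 and 1360, both homeobox genes used in early hindlimb progenitors. Sall4, a zinc finger factor gene, had 8673 and 1081. The genes with no E11.5 region within 1 kb were Hoxc9, Hoxc11 and Ldb1, which encodes a cofactor of LIM-homeodomain factors, with E10.5 signals of 7520, 8144 and 11541. The E10.5 regions of Hoxc11 and Ldb1 did meet an E11.5 region over 1 kb from the start site, whereas that of Hoxc9, a posterior Hox gene, like that of Pitx1, met none. Of the 3 forelimb counterparts, Tbx5, Hoxc4 and Hoxc5, all had an E10.5 region and Hoxc5 alone had an E11.5 one.

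Marker promoters were read in the same way to check the tissue. All 8 limb mesenchyme markers had a promoter region in both lists, with summed signals from 1721 to 17871 at E10.5 and from 627 to 6253 at E11.5. Lists for other cells of the limb gave these counts at E10.5 and E11.5. Surface ectoderm had 4 of 5 in each list, endothelium 2 and 1 of 4, blood 2 and 2 of 3, muscle precursors 4 and 2 of 4, and Schwann cell precursors 2 and 1 of 2. For the other cell types that use Isl1, motor neuron genes had 6 of 6 at E10.5 and 2 of 6 at E11.5. Among them Chat and Slc18a3 have neighbouring start sites and the same E10.5 region (signal 686), so they are not separate observations. Sensory neuron genes had 5 and 4 of 5, and heart progenitor genes 2 and 2 of 3. The heart factor gene Nkx2-5 had none in either list. The muscle, Schwann, motor neuron and sensory neuron lists were thus complete at E10.5 too, so that count does not set limb mesenchyme apart. At E11.5 limb mesenchyme was the only complete marker list. The other lists held fewer genes, and several of their counts lie near the share over all genes, so the counts do not identify the cells. An accessible promoter does not show that a gene is expressed, and the part of nerve cells in the Isl1 regions was not tested.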

How the data were processed

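The files analysed were 2 peak lists in narrowPeak format on mm10, per the file headers, 1 for each stage and named for both replicates. The submitters' processing notes name cutadapt, Bowtie2, SAMtools, deepTools and Genrich, with no settings. How replicates were joined, and any shift of read ends for Tn5, is not given in the sources used here. The deposited signal value is the peak's own and grows with its width, the deposited −log10 p is the peak's own, and the deposited score was not used. The q-value column holds -1 throughout.

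Peaks on chromosomes 1 to 19, X and Y entered with Python 3.11.15, pandas 2.3.3, numpy 2.4.6 and scipy 1.17.1. Gene positions came from a RefSeq table of GRCm38.p6. Strand came from the RefSeq promoter table, or by symbol from GENCODE M1, whose coordinates were not used, for 21532 of 21883 protein-coding genes. A start site is the outer end of the gene, and alternative start sites were not used. A region was shared if 1 bp or more of it lay in a region of the other list, and a promoter region lies within 1 kb of a protein-coding start site. The overlap function was tested on simulated data.

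The members and lists were chosen with earlier results of these data known. The segments and signal bands were set after the regions had been seen. The rule for naming took the promoter regions of both genes, all E11.5 regions, and per interval the 5 strongest E10.5 regions and the 5 strongest without overlap. For likeness it took the 3 nearest genes with start sites over 500 kb away. Alternatives were a −log10 p threshold, equal list lengths, stricter overlap, other windows and other promoter widths. One comparison gene is not reported here. No test between stages was possible.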

Additional observations from a re-analysis of the deposited data

How the results depend on the processing

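No paired analysis was possible because the peaks of a stage come as a single list without separate replicates, so leaving out a replicate could not be run either. The unknown depth limits every count of regions. Over 11 alternative settings, 52 of 88 values kept to their criterion (1.5 times for a count, the 95% interval for a percentage) and 36 moved, most by construction. The Isl1 promoter had 1 region in each list throughout. The Pitx1 promoter had no E11.5 region in any setting run, but none of the settings could have given it one. Its nearest E11.5 region lay 4.06 kb away, and the widest promoter tried was 2 kb. The other settings left the E11.5 list as it was or shortened it. These Pitx1 values count among the 52 but do not bear on stability. The same holds for the numbers of E11.5 regions and for the E11.5 promoter values wherever only the E10.5 list was reduced.

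With −log10 p of at least 5, Pitx1 had 63 E10.5 and 12 E11.5 regions, with 10 and 12 shared. Isl1 had 9 E11.5 regions, with 8 and 8 shared, and 94.2% of all E11.5 regions were shared. With the E10.5 list reduced to the E11.5 length by signal, by −log10 p and by signal per bp, Pitx1 had 58, 53 and 44 E10.5 regions and Isl1 10, 10 and 12. Over all regions 68.9%, 70.2% and 67.5% of E10.5 and 75.3%, 76.4% and 73.3% of E11.5 regions were then shared. With 50% reciprocal overlap 6 E10.5 and 6 E11.5 regions of Pitx1 were shared, against 13 of each at Isl1, and 20.3% and 53.8% of all. With summits within 100 bp the genome-wide percentages were 26.6 and 70.6. Within 250 kb Pitx1 had 66 and 13 regions, with 11 and 13 shared. Isl1 had 10 and 8, with 7 and 8 shared, within 100 kb and 33 E10.5 regions within 500 kb. With promoters within 2 kb, Pitx1 had 3 E10.5 regions.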
